A study of Mus musculus with 4 samples.

Results

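The genes described here encode core parts and regulators of the spliceosome, the machine that removes introns from pre-mRNA. They were chosen by symbol alone: protein-coding genes of GENCODE mouse release M21 whose names begin with Srsf and a digit, Snrp, Sf3a or Sf3b, U2af, Prpf or Hnrnp. The rule found 68 of 21945 protein-coding genes in the files, with 11 in the Srsf family, 12 Snrp, 9 Sf3, 3 U2af, 13 Prpf and 20 Hnrnp. Their RNA was measured by sequencing total RNA, depleted of rRNA, from naive CD4 T cells of mice. Cells were sorted as TCRb+ and CD4+, without CD25, high for CD62L and low for CD44. The DKO group, of 2 libraries, came from mice with loxP-flanked Btg1 and Btg2 alleles and CD4-Cre, which removes both genes from cells that have passed through Cd4 expression in the thymus. The WT group, also of 2 libraries, came from littermates that carried the same loxP-flanked alleles and no Cre. The age of the mice is not given in the sources used here. From the title of the series, the comparison asks how loss of BTG1 and BTG2, which bind the CCR4-NOT deadenylase, alters mRNA in resting T cells.

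Splicing is carried out by small nuclear ribonucleoproteins (snRNPs), each an RNA wrapped in a ring of Sm proteins with particle-specific partners. U2AF and the SF3A and SF3B complexes recognise the end of the intron and its branch point, and PRPF proteins build and drive the catalytic particle. SR proteins, encoded by the Srsf genes, bind exons and generally promote their inclusion, whereas hnRNP proteins often oppose it and also handle mRNA export and stability. Many SR protein and hnRNP genes make transcripts with an extra exon that carries a premature stop codon, which exposes them to nonsense-mediated decay (NMD) and limits the protein they yield.

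The 4 libraries held 13889894 to 17827631 estimated counts each, and the members took 0.564 and 0.634% of them in the DKO libraries, against 0.472 and 0.463% in the WT libraries. Of the counts on protein-coding genes, the members took 1.26 and 1.30% in DKO and 1.21 and 1.30% in WT. The labels held for the targets: Btg1 had 6.06 and 5.77 CPM (counts scaled to library size) in DKO, against 530 and 470 CPM in WT, and Btg2 had 0.294 and 0.323 CPM in DKO, against 92.9 and 92.1 CPM in WT. Markers of CD4 T cells summed to 1342 and 1391 CPM in DKO and 1093 and 1310 CPM in WT, and those of naive cells to 2268 and 2193 CPM in DKO and 2047 and 2407 CPM in WT. Ncr1, which marks NK cells, had no counts in any library, which allows up to 0.168 to 0.216 CPM of the library total at 3 counts. The 3 regulatory T cell markers, all detected, summed to 19.5 and 32.0 CPM in DKO, against 7.97 and 9.06 CPM in WT, and the part of such cells in the results below was not tested. The CD8 T cell markers summed to 8.60 and 13.2 CPM in DKO, against 7.18 and 7.51 CPM in WT, and those of B cells, myeloid, NK and erythroid cells to 5.45 CPM or less in every library. Nearly all of the CD8 sum was Cd8b1. Cd8a had 1 and 5 counts in DKO, against 6 and 1 in WT. In bulk RNA, fewer cells of a type and less RNA per cell cannot be told apart.

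Under TMM scaling, which centres most genes, splicing factor genes as a group lay at nearly the same level in both genotypes. Their share of total counts was larger in both DKO libraries, as given above, and with total counts as the scale their median log2 fold change was 0.34, where that of all genes was 0.33. Of the 68 members, 67 passed the filter on low counts, and Snrpn did not. By the quasi-likelihood test of edgeR, with p adjusted by Benjamini and Hochberg over 12863 genes, 0 members were called in either direction, and the lowest adjusted p among them was 0.412. Over all genes tested, 16 were called, or 0.124%. At an unadjusted p below 0.05, 0 members lay higher, where all genes gave 3.82%, and 5 lay lower, where all genes gave 4.35%. Protein-coding genes leaned more to the higher side: of 10733 tested, 471 lay higher and 286 lower. Those within the interquartile range of the members' levels, 21.5 to 101 CPM, leaned further, with 184 of 2655 higher and 63 lower. Of the 33 members in that range, 0 lay higher and 3 lower. DESeq2 also called 0 members, where it called 1.29% of genes. It gave an unadjusted p below 0.05 to 0 members on the higher side and 3 on the lower. The share of all genes below that p by DESeq2 was not counted.

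The members' log2 fold changes, DKO over WT, ran between −0.54 and 0.50 with a median of 0.002. The median was −0.01 over all genes tested and 0.02 over protein-coding genes. The signs were balanced, with 34 members above 0 and 33 below. Of protein-coding genes tested, 47.3% lay below 0. Of the 2655 within the interquartile range of the members' levels, 39.1% did, against 51.5% of the 33 members there. The DKO libraries were both above the WT libraries for 9 members (19.8% of all genes did so) and both below for 13 (18.8% of all genes), and the groups overlapped for 45. In that level range, both DKO libraries were above for 744 of the 2655 protein-coding genes and 4 of the 33 members. Both were below for 361 of these genes and 5 of these members. For 63 members the 95% interval of the fold change lay within 2-fold either way, or 94.0%, against 67.0% of protein-coding genes. This difference went with level: among genes within the interquartile range of the members' levels, between 21.5 and 101 CPM, it held for 32 of 33 members (97.0%) and for 97.9% of 2655 protein-coding genes. The 4 members with wider intervals were Hnrnph1, Prpf40b, Snrpa1 and Srsf12. In simulated data of this design, 36.4% of genes changed by 1 on the log2 scale and 86.0% of genes changed by 2 were called. The changed genes were drawn from all tested genes above a low floor of counts, so these shares do not describe the members in particular. A member without a call may still differ by an amount within its interval.

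**Figure D1:**
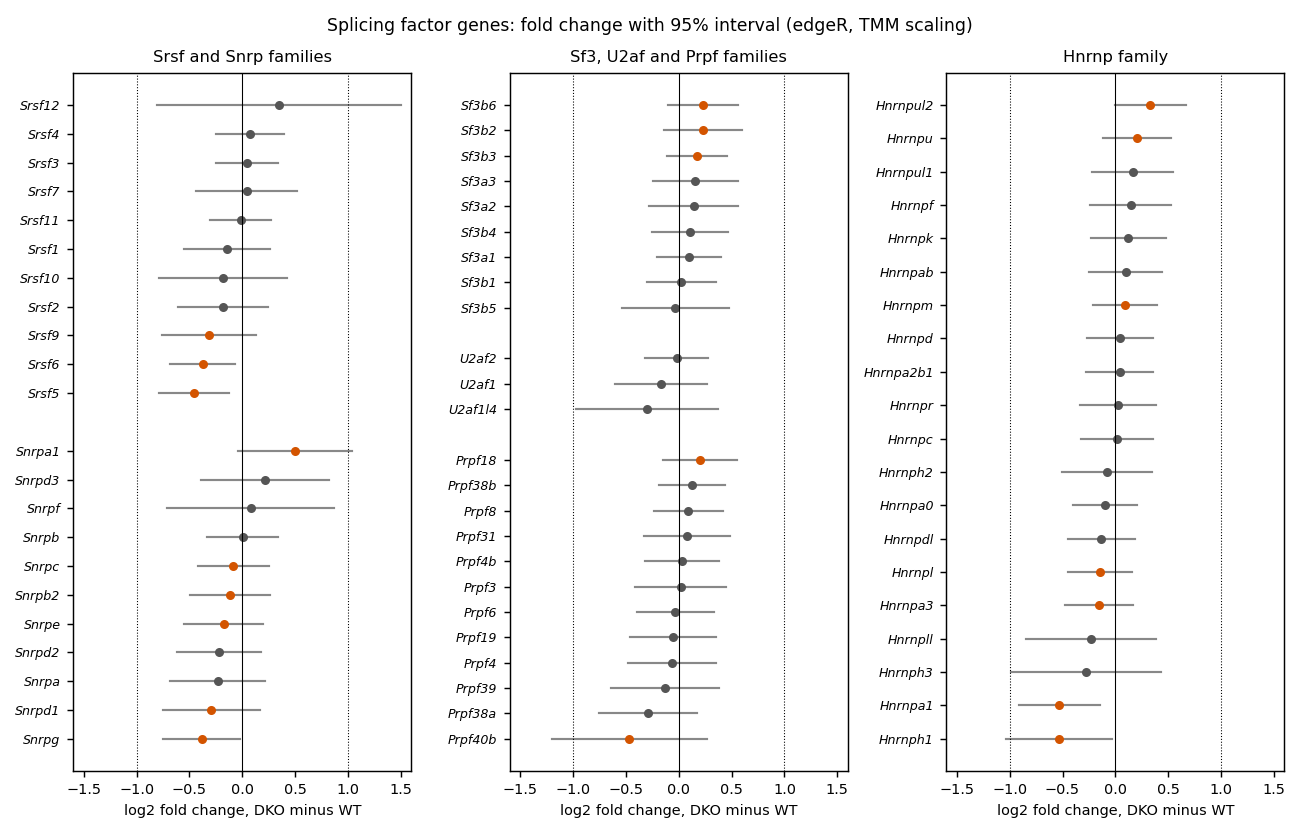
Log2 fold change, DKO minus WT, of 66 of the 67 members tested (points), with 95% intervals by edgeR (lines). Orange points are members whose 2 DKO and 2 WT libraries do not overlap, grey points are the 45 that overlap, and dotted lines mark 2-fold either way; points lie between −0.54 and 0.50.

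Among the SR protein genes, 7 of 11 had a log2 fold change below 0 and 4 above, with a family median of −0.15. Summed over the family, the level was 533 and 505 CPM in DKO, against 644 and 547 CPM in WT. By edgeR, 0 were called, and Srsf5 and Srsf6 lay lower at an unadjusted p below 0.05. Srsf5 (ENSMUSG00000021134, GRCm38 chromosome 12, 80945504 to 80950507, plus strand), which encodes the SR protein SRp40, had 150 and 142 CPM in DKO, against 217 and 183 CPM in WT. Both DKO libraries lay below both WT libraries, with a log2 fold change of −0.46 (SE 0.14) and an adjusted p of 0.414 by edgeR. Srsf6 (ENSMUSG00000016921, chromosome 2, 162931528 to 162937121, plus strand), which encodes the SR protein SRp55, had 47.1 and 45.8 CPM in DKO, against 63.6 and 56.9 CPM in WT. The log2 fold change was −0.38 (SE 0.13), again without overlap, with an adjusted p of 0.502 by edgeR.

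Both DKO libraries lay below both WT libraries for 3 of the 11 SR genes, Srsf5 and Srsf6 among them, where 18.8% of all genes did so. The SR genes that follow overlapped between the groups. Srsf1, the founding regulator of alternative splicing in this family, had 28.1 and 27.01 CPM in DKO, against 35.6 and 25.2 CPM in WT. Srsf2, which binds exonic enhancers, had 38.3 and 33.6 CPM in DKO, against 48.0 and 33.5 CPM in WT. In both genes WT replicate 1 was the highest library and WT replicate 2 the lowest. Srsf3, the smallest SR protein, had 71.6 and 69.4 CPM in DKO, against 70.4 and 66.2 CPM in WT (log2 0.05, interval −0.25 to 0.34). Srsf7, which acts with SRSF3 in mRNA export, had 27.4 and 27.2 CPM in DKO, against 32.5 and 20.5 CPM in WT. The DKO libraries of Srsf7 nearly coincided and fell between those of WT. Srsf4, which encodes SRp75, had 43.2 and 41.5 CPM in DKO, against 37.3 and 43.1 CPM in WT (log2 0.08). Srsf12, the weakest member of the family, had 2.18 and 2.12 CPM in DKO, against 2.15 and 1.21 CPM in WT, and its interval of −0.81 to 1.501 was the widest of all members.

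The snRNP protein genes also had 7 members below 0 and 4 above among 11 tested, with a median of −0.12. Their summed level was 261 and 243 CPM in DKO, against 226 and 294 CPM in WT, so that both DKO libraries fell between the WT libraries. Gene by gene, both DKO libraries lay below both WT libraries for 5 of the 11, where 18.8% of all genes did so. Both lay above for 1, where 19.8% of all genes did so, and 5 overlapped. By edgeR 0 were called, and Snrpg alone lay lower at an unadjusted p below 0.05. Among Sm ring proteins, Snrpg (ENSMUSG00000057278, chromosome 6, 86371304 to 86379328, plus strand), which encodes Sm G, had 23.5 and 20.7 CPM in DKO, against 26.3 and 31.5 CPM in WT. Its log2 fold change was −0.38 (SE 0.16), with an adjusted p of 0.601 by edgeR. The 2 main transcripts of Snrpg differed. The processed transcript Snrpg-203 held 45.1 and 47.7% of its counts in DKO, against 66.3 and 54.2% in WT, and with protein-coding transcripts alone the log2 fold change of the gene was 0.05. Snrpd1, which encodes Sm D1, had 8.42 and 8.08 CPM in DKO, against 9.69 and 10.5 CPM in WT (log2 −0.29, adjusted p = 0.772 by edgeR).

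Snrpb, which encodes Sm B and is the most abundant snRNP gene by CPM, had 48.7 and 45.0 CPM in DKO, against 42.7 and 50.8 CPM in WT. Its log2 fold change of 0.002 had an interval of −0.33 to 0.34. Snrpd3, for Sm D3, had 41.9 and 34.4 CPM in DKO, against 24.5 and 41.3 CPM in WT. Here the value turned on 1 library: the log2 fold change of 0.21 was −0.12 without WT replicate 1 and 0.65 without WT replicate 2. Of the particle-specific proteins, Snrpa1 (ENSMUSG00000030512, chromosome 7, 66059003 to 66074587, plus strand), which encodes the A′ protein of the U2 snRNP, had 15.7 and 12.004 CPM in DKO, against 8.11 and 11.5 CPM in WT. It had the highest log2 fold change of all members, 0.50 (SE 0.23), without overlap but with an adjusted p of 0.647 by edgeR. The value was 0.26 without WT replicate 1, where Srsf12 (0.83), Srsf7 (0.41) and Prpf18 (0.30) lay above it, and 0.78 without WT replicate 2. Snrpn, an imprinted gene for the neuronal Sm N protein, had 1 and 4 estimated counts in DKO and 3 and 0 in WT and was not tested.

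Genes of the SF3 complexes leaned slightly the other way, with 8 of 9 above 0 and a median of 0.14. Their summed level was 775 and 735 CPM in DKO, against 662 and 713 CPM in WT. By edgeR 0 were called, and 0 had an unadjusted p below 0.05 in either direction. Sf3b2, the most abundant by CPM, encodes a subunit next to the branch point and had 278 and 247 CPM in DKO, against 202 and 247 CPM in WT. The fold change was 0.23 on the log2 scale (interval −0.14 to 0.59), and relative to the median gene it was 0.06 without WT replicate 1. Sf3b6, whose small protein contacts the branch-point region, had 30.7 and 29.2 CPM in DKO, against 23.8 and 27.4 CPM in WT. The DKO libraries of each were both higher than those of WT, although for Sf3b2 by little, and the third such member was Sf3b3. Sf3b1, the large scaffold that clamps the branch helix, had 214 and 220 CPM in DKO, against 228 and 199 CPM in WT (log2 0.02). Sf3b5 was the only member of the family below 0, at 13.0 and 10.5 CPM in DKO, against 10.1 and 13.9 CPM in WT (log2 −0.03).

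All 3 U2af genes lay below 0, by small amounts and with overlapping groups. U2af2, which encodes the large subunit that binds the polypyrimidine tract, had 83.0 and 76.7 CPM in DKO, against 77.4 and 84.8 CPM in WT (log2 −0.02). U2af1, for the small subunit that reads the last bases of the intron, had 22.5 and 18.1 CPM in DKO, against 19.8 and 25.9 CPM in WT (log2 −0.17). U2af1l4, a paralogue of the small subunit, had 6.83 and 4.76 CPM in DKO, against 5.89 and 8.37 CPM in WT (log2 −0.30). In each of these genes WT replicate 2 was the highest library. Relative to the median gene, the family median was −0.15, and it was 0.05 without WT replicate 2 and 0.03 without DKO replicate 2.

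The Prpf genes were evenly spread, with 7 of 13 above 0, 6 below and a median of 0.02. Their summed level was 792 and 738 CPM in DKO, against 728 and 746 CPM in WT, and by edgeR 0 were called and 0 had an unadjusted p below 0.05. Prpf8, the most abundant by CPM, encodes the U5 snRNP scaffold around the catalytic centre and had 273 and 262 CPM in DKO, against 239 and 263 CPM in WT (log2 0.09). Prpf18, a factor of the last splicing step, had 23.7 and 24.98 CPM in DKO, against 22.6 and 19.8 CPM in WT (log2 0.20). Prpf38b, whose product belongs to the PRP38 family, had 160 and 139 CPM in DKO, against 134 and 140 CPM in WT (log2 0.13). Of these, Prpf18 alone had DKO libraries separate from those of WT. Prpf40b, a relative of a U1-associated yeast protein, had 3.24 and 3.28 CPM in DKO, against 5.02 and 3.97 CPM in WT. Its log2 fold change of −0.47 had an interval of −1.20 to 0.26, without overlap between the groups, and with protein-coding transcripts only it was 0.18 relative to the median gene. Prpf38a, needed to activate the assembled spliceosome, had 14.1 and 11.7 CPM in DKO, against 17.9 and 13.6 CPM in WT (log2 −0.29).

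The Hnrnp genes made up most of the members' CPM, with a summed level of 3026 and 2895 CPM in DKO, against 2703 and 3127 CPM in WT. Of 20 members 11 lay above 0 and 9 below, with a median of 0.02, and by edgeR 0 were called. Hnrnpa1 and Hnrnph1 lay lower at an unadjusted p below 0.05, and 0 lay higher. Hnrnpa1 (ENSMUSG00000046434, chromosome 15, 103240432 to 103246692, plus strand), a repressor of exon inclusion, had 161 and 139 CPM in DKO, against 189 and 244 CPM in WT. The log2 fold change was −0.53 (SE 0.17) and the adjusted p of 0.412 by edgeR was the lowest of all members. Hnrnph1 (ENSMUSG00000007850, chromosome 11, 50376990 to 50386528, plus strand), which binds runs of G, had 41.9 and 46.2 CPM in DKO, against 78.4 and 49.1 CPM in WT. Its log2 fold change of −0.54 (SE 0.22, adjusted p = 0.595 by edgeR) rested on WT replicate 1, which stood well above the other libraries. That excess lay mostly in processed transcripts, not in the 3 protein-coding transcripts of Hnrnph1. The latter had 0 and 150, 174 and 137, and 35 and 0 counts in DKO, against 250 and 178, 0 and 0, and 0 and 63 in WT. Summed, the protein-coding counts of the WT libraries were thus nearly equal. Without WT replicate 2 the gene was called (log2 −0.82, adjusted p = 0.0478 by edgeR, where 0.348% of genes were called lower), and without WT replicate 1 the log2 fold change was −0.16. Hnrnpa1, in turn, was at −0.71 without WT replicate 1 (adjusted p = 0.0567 by edgeR) and at −0.32 without WT replicate 2.

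At the other end of the family was Hnrnpul2 (ENSMUSG00000071659, chromosome 19, 8820010 to 8834143, plus strand), a relative of Hnrnpu, with 134 and 132 CPM in DKO, against 94.5 and 117 CPM in WT. The difference was 0.33 on the log2 scale (SE 0.15), with an unadjusted p of 0.0527 and an adjusted p of 0.624 by edgeR. Relative to the median gene it was 0.16 without WT replicate 1 and 0.51 without WT replicate 2. Hnrnpu, for the nuclear scaffold protein SAF-A, had 227 and 210 CPM in DKO, against 181 and 197 CPM in WT (log2 0.21, or 0.008 relative to the median gene with protein-coding transcripts only). For these genes the DKO and WT libraries did not overlap. Hnrnpf, the member with most CPM and a relative of Hnrnph1, had 528 and 488 CPM in DKO, against 416 and 503 CPM in WT (log2 0.14). Hnrnpk, which binds runs of C, had 283 and 293 CPM in DKO, against 238 and 291 CPM in WT (log2 0.12). Hnrnpa2b1, a close relative of Hnrnpa1, had 256 and 257 CPM in DKO, against 241 and 258 CPM in WT (log2 0.04, interval −0.28 to 0.36). In none of these 3 genes were the groups separate, and each had its lowest library in WT replicate 1.

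HNRNPL and its paralogue HNRNPLL regulate the variable exons of Ptprc, which encodes CD45, in T cells. Hnrnpl had 91.1 and 94.6 CPM in DKO, against 96.7 and 109 CPM in WT (log2 −0.15, adjusted p = 0.842 by edgeR). Hnrnpll was far weaker, with 6.30 and 7.53 CPM in DKO, against 9.83 and 6.39 CPM in WT (log2 −0.23, interval −0.85 to 0.38). Leaving out WT replicate 1 or the others in turn moved Hnrnpll between −0.49 and 0.09 relative to the median gene.

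The WT libraries differed more from each other than the DKO libraries did. The median absolute log2 difference over the 67 members was 0.116 between the DKO libraries and 0.262 between the WT libraries, and its direction varied by family. WT replicate 1 lay above WT replicate 2 for 10 of 11 Srsf genes, but for 1 of 11 Snrp, 2 of 9 Sf3, 0 of 3 U2af and 3 of 20 Hnrnp genes. Family medians relative to the median of all genes therefore moved with that library. Without WT replicate 1 the Srsf median was 0.06 in place of −0.13, the Snrp median −0.34 in place of −0.10 and the Sf3 median 0.005 in place of 0.16.

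**Figure D2:**
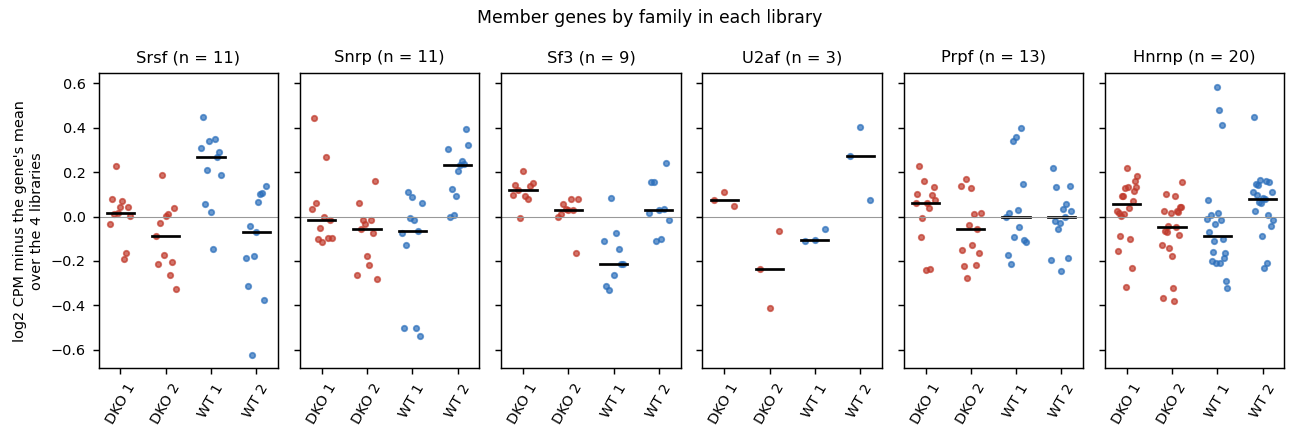
Log2 CPM of each of the 67 tested members in each library, minus that gene's mean over the 4 libraries, by family (points; black bars are medians; red DKO, blue WT). WT replicate 1 is high for Srsf genes, with a median of 0.267, and low for Sf3 genes, with a median of −0.215.

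Levels were compared between genes per length, in TPM (abundance scaled to transcript length and library total) over all 4 libraries. Family medians were 6.53 TPM for Hnrnp, 2.48 for U2af, 2.02 for Srsf, 1.82 for Snrp, 1.61 for Sf3 and 1.22 for Prpf genes. Hnrnpf led with 34.7 and 36.7 TPM in DKO and 22.3 and 24.4 TPM in WT, ahead of Hnrnpk with 22.8 and 26.4 TPM in DKO and 17.8 and 17.1 TPM in WT. Hnrnpa2b1 came after these with 16.5 and 19.0 TPM in DKO and 13.4 and 12.5 TPM in WT. The fourth, Srsf5, with 11.8 and 12.7 TPM in DKO and 14.6 and 10.7 TPM in WT, was not separate from the genes just below it. TPM values are not corrected for the larger share of protein-coding counts in DKO, at 44.7 and 48.9%, against 38.9 and 35.7% in WT. The members' summed TPM were accordingly 298 and 323 in DKO, against 249 and 231 in WT.

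**Figure D3:**
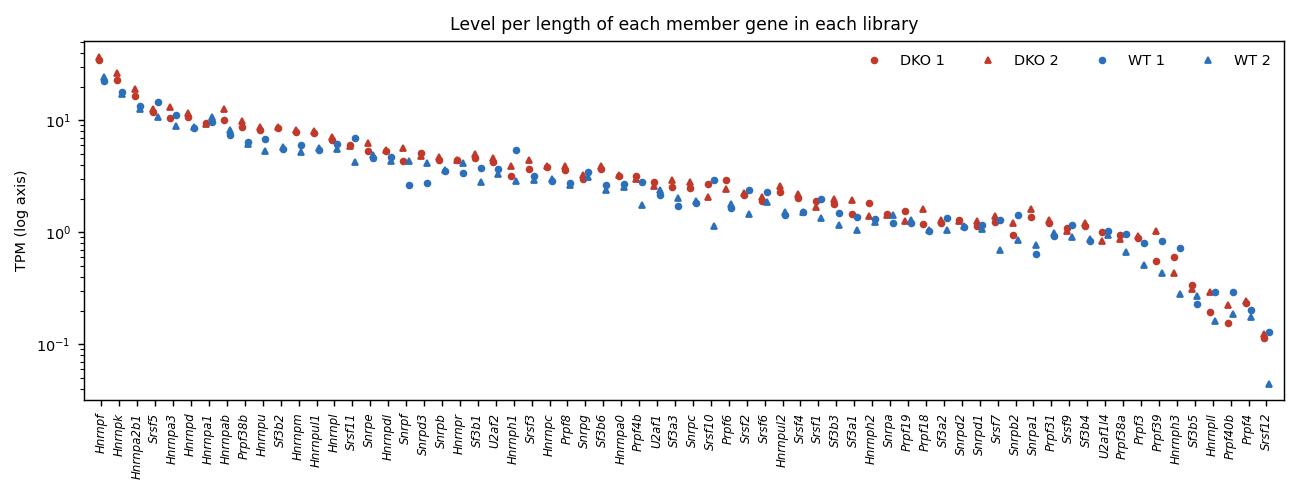
TPM of each member in each library on a log axis, ordered by the mean over the 4 libraries, for 66 members (red DKO, blue WT; circles replicate 1, triangles replicate 2; Snrpn, at 0.0122 TPM or less, is not drawn). Hnrnpf is highest and Srsf12 lowest among those drawn.

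The choice of scaling sets where all genes lie and therefore the members too. Scaled to 5 RNA polymerase III transcripts, the median log2 fold change was 0.90 both for all genes and for the members. By edgeR with the RNA polymerase III scaling, 4 members were called higher, Hnrnpf, Hnrnpul2, Sf3b2 and Snrpa1, where 3.67% of all genes were called higher. Relative to the median of all genes, their log2 fold changes under that scaling were 0.18, 0.38, 0.26 and 0.53.

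SR protein and hnRNP genes are known for transcripts with a premature stop, and NMD transcripts could be set against protein-coding ones for 21 of the 31 members that have both annotated. By limma with Benjamini-Hochberg adjustment over 1215 genes, the NMD to protein-coding ratio passed for 0 members, where 0% of all genes passed, and the lowest adjusted p was 0.939. At an unadjusted p below 0.05, 1 member lay higher, where all genes gave 1.15%, and 0 lay lower, where all genes gave 2.22%. The members' median difference was 0.21 on the log2 scale, against −0.08 over all genes. It was 0.03 without WT replicate 1 (all genes −0.08), so most of it came with that library. The NMD class held most of the counts of some members: of NMD plus protein-coding counts it took 84.9 and 80.9% for Prpf4b in DKO, against 79.6 and 80.5% in WT, and 80.4 and 79.8% for Hnrnpu in DKO, against 75.4 and 79.8% in WT.

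The cassette exons of Srsf3 and Srsf6 are shown because they carry the premature stop of these transcripts and could be read directly from GENCODE M21. Each sequence is the plus strand of GRCm38, 5′ to 3′, from the start of the extra exon through the stop codon, which is in capitals. The Srsf3 exon, chr17:29039454-29039909, has 456 bases, of which the first 34 are shown (chr17:29039454-29039487). The Srsf6 exon, chr2:162932815-162933082, has 268 bases, of which the first 152 are shown (chr2:162932815-162932966).
Srsf3-201 exon: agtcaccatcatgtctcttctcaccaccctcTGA
Srsf6-201 exon: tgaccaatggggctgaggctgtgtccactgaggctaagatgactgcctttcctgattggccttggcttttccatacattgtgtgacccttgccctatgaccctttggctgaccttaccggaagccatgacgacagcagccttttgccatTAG
Srsf3-201, which holds its exon, took 68.2 and 68.5% of NMD plus protein-coding counts of Srsf3 in DKO, against 65.9 and 61.9% in WT. It also differs from the protein-coding Srsf3-202 at the 3′ end, so its counts need not all reflect the exon. Srsf6-201 took 36.2 and 33.1% of those of Srsf6 in DKO, against 40.04 and 45.3% in WT. The Srsf3 share was thus higher and the Srsf6 share lower in both DKO libraries, with log2 ratio differences of 0.29 (SE 0.33) and −0.49 (SE 0.34), neither past the test (adjusted p = 0.939 by limma for both). Such separation was common: of the 1215 genes tested, 167 had a higher NMD ratio in both DKO libraries and 248 a lower one. Of the 21 members, 7 were higher and 4 lower in this way.

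Among the other members, the NMD ratio of Sf3b1 (log2 1.82) rested on 87 and 72 counts in DKO, against 6 and 29 in WT, and was 0.58 without WT replicate 1 and 3.06 without WT replicate 2. That of Hnrnpa2b1 (log2 3.27) turned on WT replicate 1, with 659 and 694 counts in DKO, against 5 and 394 in WT, and was 0.11 without that library. On the lower side were Srsf11 (log2 −2.34), with 19 and 2 counts in DKO, against 14 and 23 in WT, and Srsf4 (log2 −0.82), with 17 and 18 counts in DKO, against 16 and 20 in WT. The Srsf11 difference was −3.91 without DKO replicate 1 and −0.77 without DKO replicate 2.

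**Figure D4:**
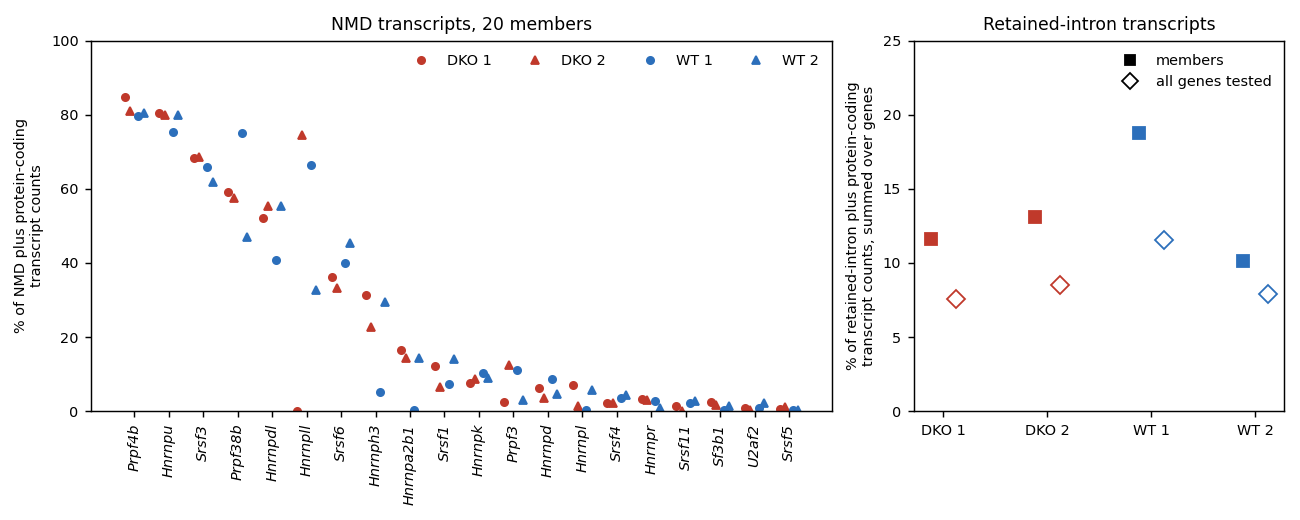
Left, NMD transcripts as a share of NMD plus protein-coding transcript counts (%) for 20 of the 21 members tested in each library. Right, retained-intron transcripts as a share of retained-intron plus protein-coding counts (%), summed over the 35 members (squares) and over all 2992 genes tested (diamonds); WT replicate 1 is highest in both, at 18.8 and 11.6%.

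Retained-intron transcripts took 11.6 and 13.1% of retained-intron plus protein-coding counts of the 35 members tested in DKO, against 18.8 and 10.1% in WT. Of all genes tested the share was 7.60 and 8.52% in DKO, against 11.6 and 7.92% in WT. Both DKO libraries thus fell between the WT libraries for the members, and WT replicate 1 had the highest ratio of the 4 libraries in 26 of 35 members, or 74.3%, against 62.6% of all genes. By limma over 2992 genes, 0 of the 35 members passed, where 0.0334% of genes did (lowest adjusted p = 0.99993). At an unadjusted p below 0.05, 0 members lay higher (0.702% of genes) and 3 lay lower (2.37% of genes). The median difference of the members was −0.31, against −0.20 for all genes (log2). It was 0.25 without WT replicate 1 (all genes 0.24) and −0.94 without WT replicate 2 (all genes −0.77), so its sign follows a single library. Without WT replicate 2, Srsf11 was called by limma, where 0.301% of genes were.

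The retained-intron share of Snrpb was lower in both DKO libraries, at 4.81 and 4.33% in DKO, against 11.9 and 13.2% in WT, or 40 and 42 counts, against 71 and 78. Its log2 ratio difference of −1.58 (SE 0.75, adjusted p = 0.99993 by limma) ranged over −1.66 to −1.49 with each library left out. Of the 2992 genes tested, the ratio was lower in both DKO libraries for 562 and higher in both for 228. Of the 35 members, 7 were lower and 0 higher in this way. Srsf4, with 0 and 43 counts in DKO, against 47 and 32 in WT, and Prpf19, a ubiquitin ligase of the spliceosome, with 35 and 0 counts in DKO, against 36 and 16 in WT, each had 1 DKO library without counts, and without it the log2 differences were −0.73 and 0.02. On the higher side were Hnrnpll (log2 1.30), Srsf5 (0.62) and the A/B-type hnRNP gene Hnrnpa3 (0.69). All 3 overlapped between the groups and were lowest in WT replicate 2, where Hnrnpll had 5 retained-intron counts, Srsf5 74 and Hnrnpa3 12.

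Other genes of the pathway were counted in 9 lists, 154 genes in all, of which 153 were tested. By edgeR 0 were called, where 0.124% of all genes were. At an unadjusted p below 0.05, 1 lay higher (3.82% of all genes) and 8 lower (4.35% of all genes), and the median log2 fold change was 0.03 with 87 above 0 and 66 below. DESeq2 also called 0, with 1 higher and 4 lower at an unadjusted p below 0.05, where its share over all genes was not counted. The LSm ring genes, Lsm1 to Lsm8, had 1 above 0 and 7 below (median −0.11), and the minor spliceosome 3 above and 8 below (median −0.10). Other U1 and U2 subunits had 11 above and 4 below (median 0.13), the SMN assembly complex 12 and 3 (0.10), and the Prp19 complex with catalytic factors 21 and 5 (0.12). Other tri-snRNP subunits had 6 above and 7 below (−0.04), exon junction genes 6 and 4 (0.05), and other RNA-binding regulators 16 and 15 (0.01). SR-like proteins and SR kinases had 11 above and 13 below (−0.10). In this list Clk4, a kinase that phosphorylates SR proteins, had 27.6 and 28.6 CPM in DKO, against 41.7 and 35.7 CPM in WT (log2 −0.46, adjusted p = 0.393 by edgeR). Clk4 was separate between the groups. Among other genes with an unadjusted p below 0.05 by edgeR, so were Lsm6 (−0.52), Zrsr1 (−0.50), Pnisr (−0.43), Clk3 (−0.34), Tial1 (−0.46) and Matr3 (−0.40) on the lower side, and Dhx8 (0.34) on the higher. Over all 9 lists, whatever their p, the groups were separate for 21 genes on the higher side and 24 on the lower. Of all genes tested, 19.8% were separate on the higher side and 18.8% on the lower.

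Several members share sequence with other genes, which makes their estimated counts uncertain. For 7 of the 68, at least 40% of their 31-base words also occur in another gene. For Hnrnpa1 this was 50.03%, mostly with the processed pseudogene Gm10052, and the summed level of both genes was 161 and 139 CPM in DKO, against 200 and 244 CPM in WT (log2 −0.57). For Hnrnpf it was 46.0% over 8 other genes, with 31.7% in the pseudogene Gm6430. It was 58.2% for U2af1 (mostly Gm10232) and 51.2% for Sf3b4 (mostly Gm7935), and these pseudogenes were at 1.29 CPM or less. For Snrpf it was 92.1% over 5 other genes, with 61.7% in the overlapping gene Ccdc38 on the other strand. U2af1l4 shared 49.6%, mostly with Gm49396, which had 3.59 and 3.69 CPM in DKO, against 3.52 and 2.94 CPM in WT. The log2 ratio of their summed level was −0.13, against −0.30 for U2af1l4 alone. Srsf4 shared 41.0%. A gene on the other strand overlaps 25 members, among them Snrpg, Snrpd3, Srsf2 and Hnrnpk, and the strand setting of the counts is not given in the sources used here.

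Across the 67 members the log2 fold change had a Pearson r of 0.279 and a Spearman rho of 0.288 with effective transcript length, against 0.022 and 0.053 over 10733 protein-coding genes. The points share the same 4 libraries, and genes are not independent replicates.

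Promoter windows, from 250 bases before to 50 bases after the start, were matched in RefSeq (GRCm38.p6) for 59 members. Their median GC content was 60%, against 61% for 8510 tested protein-coding genes. Motifs were searched as exact letters on both strands, a window counted once per motif, and matches of different motifs could overlap. The CREB-type motif TGACG was in 52.5% of members' windows and 33.4% of the tested genes' windows, the ETS motif CCGGAAG in 32.2 and 20.5%, and the NFY motif CCAAT in 49.2 and 39.6%. The SP1 motif GGGCGG was in 66.1 and 64.8%, the TATA letters TATAAA in 10.2 and 6.89%, and the YY1 motif AAGATGGCG in 3.39 and 3.67%. The NRF1 palindrome was in 0 and 2.39%. Windows of the 3 members lowest in unadjusted p are shown on their plus strand, with the ETS, NFY and CREB letters, or their reverse complements, in capitals. They are chr12:80945249-80945548 for Srsf5, chr2:162931258-162931557 for Srsf6 and chr15:103240147-103240446 for Hnrnpa1.
Srsf5: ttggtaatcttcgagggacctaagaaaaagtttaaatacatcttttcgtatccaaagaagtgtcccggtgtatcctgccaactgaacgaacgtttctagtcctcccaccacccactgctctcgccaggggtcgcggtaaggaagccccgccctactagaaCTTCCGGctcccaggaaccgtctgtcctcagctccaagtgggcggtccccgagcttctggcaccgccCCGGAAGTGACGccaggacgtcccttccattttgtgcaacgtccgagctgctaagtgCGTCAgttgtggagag
Srsf6: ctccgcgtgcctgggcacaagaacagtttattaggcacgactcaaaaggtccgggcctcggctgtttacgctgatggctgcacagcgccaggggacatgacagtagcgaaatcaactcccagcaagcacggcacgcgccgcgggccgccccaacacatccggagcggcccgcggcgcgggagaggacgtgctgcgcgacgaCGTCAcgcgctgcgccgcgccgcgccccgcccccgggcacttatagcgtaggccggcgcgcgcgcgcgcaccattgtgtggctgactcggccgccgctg
Hnrnpa1: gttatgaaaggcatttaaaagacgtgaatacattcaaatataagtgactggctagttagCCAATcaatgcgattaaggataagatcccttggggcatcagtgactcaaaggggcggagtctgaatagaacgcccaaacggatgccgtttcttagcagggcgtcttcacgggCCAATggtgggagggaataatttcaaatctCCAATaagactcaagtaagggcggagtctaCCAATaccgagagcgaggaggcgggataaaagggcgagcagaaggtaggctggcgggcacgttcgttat
Srsf5 holds both the ETS and CREB letters, Srsf6 the CREB letters alone and Hnrnpa1 the NFY letters 4 times. Of these 3 motifs, none is in all 3 windows.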

How the data were processed

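Naive CD4 T cells of 2 DKO and 2 WT mice were measured by RNA-seq with a stranded SMARTer Pico Input kit for total RNA, per the labels' protocols. The authors deposited, per transcript, kallisto estimated counts without scaling and TPM scaled by effective length, per the file headers. The submitters' processing notes name kallisto and the builds GRCm38 and mm10. The kallisto version is not given in the sources used here, nor are its strand setting and annotation. Of 126782 transcripts, 125182 were joined to GENCODE M21 and summed to 48858 genes, rounded to whole numbers. The unjoined rest held 0.822 to 0.852% of the counts and stayed out of the tests.

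Genes were tested with edgeR 4.0.16 (R 4.3.3; filterByExpr, TMM, robust quasi-likelihood F test, Benjamini-Hochberg over all genes tested, threshold 0.05). CPM use TMM-scaled library sizes. Transcript class ratios were tested with limma 3.58.1 on log2 ratios with a pseudocount of 0.5 in genes with a mean of at least 10 counts per class. DESeq2 1.42.0, other scalings, filters, transcript classes and leaving out each library were alternatives. An exact two-sided permutation test of 2 against 2 libraries cannot go below p = 0.333, so none was used. The p-values weigh the difference between the groups against the spread within them, which the fits moderate over genes. The 4 libraries were taken as separate mice from the labels. The fits were also tested on simulated data, which for genes took their levels and spread from the main fit.

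The members, lists and tests were chosen with earlier results of these data known. Named members are the most abundant of each family, those with the smallest unadjusted p in each direction (2 for the larger families, 1 for Sf3 and U2af), 15 fixed genes, and the 3 members with the smallest p in each direction of each class ratio. Genes of other lists named here were chosen after their values were seen. A few genes that these rules name are not reported here. Floors of 3 counts cover counting error only, as no molecular identifiers were used.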

Additional observations from a re-analysis of the deposited data

How the results depend on the processing

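Values are log2 fold changes relative to the median of all genes tested. With RNA polymerase III scaling 4 members were called. Leaving out each library in turn gave 0 to 1 members called, and 0 to 1 for the retained-intron ratio. Family medians then ran between −0.324 and 0.064 (Srsf), −0.344 and −0.0163 (Snrp), 0.0046 and 0.225 (Sf3), −0.377 and 0.0537 (U2af), −0.036 and 0.111 (Prpf) and −0.068 and 0.132 (Hnrnp). The Prpf median was −0.04 with protein-coding transcripts only. Some members changed sign, most of them near 0, but Prpf40b and Snrpg from −0.45 and −0.37. With protein-coding transcripts only, Hnrnpa2b1 was at −0.055, Prpf40b 0.18, Sf3b1 −0.0046, Snrpg 0.0503, Srsf3 −0.065 and Srsf7 −0.024. With RNA polymerase III scaling, Sf3b5 was at 0.0033 and Srsf7 at −0.0049. Without a filter, Sf3b5 was at 0.00015 and U2af2 at 0.014, and by DESeq2 at 0.0014 and 0.015. Snrpb was at −0.015 with protein-coding genes only and −0.00053 with effective lengths as offset. Leaving out each library, the ranges were −0.033 to 0.109 for Hnrnpa2b1, −0.013 to 0.304 for Hnrnpf, −0.041 to 0.290 for Hnrnpk, −0.487 to 0.0902 for Hnrnpll, −0.0039 to 0.181 for Prpf8, −0.053 to 0.097 for Sf3b1, −0.28 to 0.23 for Sf3b5, −0.146 to 0.15 for Snrpb, −0.14 to 0.65 for Snrpd3, −0.35 to 0.10 for Srsf1, −0.40 to 0.075 for Srsf2, −0.053 to 0.20 for Srsf4, −0.23 to 0.39 for Srsf7, −0.38 to 0.054 for U2af1 and −0.113 to 0.078 for U2af2. Those of retained-intron ratios were −0.68 to 2.06 for Hnrnpa3, −0.62 to 3.22 for Hnrnpll, −6.33 to 0.024 for Prpf19 and −0.53 to 1.77 for Srsf5. The cause was not tested. Over all genes edgeR called 16, against 395 without a filter, 260 with total counts, 494 with RNA polymerase III scaling, 51 among protein-coding genes and 40 to 165 with a library left out.

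The labels do not say that a number in the titles marks a shared litter, and same-numbered deviations had a correlation of −0.347 over genes. With the number as a replicate block, 0 members and 142 genes were called.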
